A study of Mus musculus with 18 samples.

Results

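Trimethylation of lysine 27 of histone H3 (H3K27me3) was compared between bone marrow-derived macrophages (BMDM) of mdx and WT mice, gene by gene. The comparison used 4 of the 18 samples of the series, which are 2 H3K27me3 ChIP libraries from WT BMDM and 2 from mdx BMDM. WT mice were labelled C57BL6 and mdx mice Dmdmdx-4Cv, a strain with a mutation in the dystrophin gene, and all were male. The cells were grown from marrow in medium with L929 supernatant and were not stimulated, and their chromatin was digested with micrococcal nuclease without crosslinking. By the labels the WT mice of the ChIP libraries were 12 and 13 weeks old and the mdx mice 14 and 15 weeks, but the labelled ages rise by 1 week from each library of the series to the next, so it is uncertain whether they are true ages. If they are, age and genotype cannot be told apart. The authors merged the 2 libraries of a genotype before they called peaks. Each genotype is therefore 1 list of broad peaks, with a count of ChIP reads for each, and no spread between mice remains and no p-value can be given. Peaks on chromosomes 1 to 19 were set against the 20807 protein-coding genes of GENCODE vM21 there, with a window for each gene from 5 kb upstream of its body to 1 kb past its end.

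H3K27me3 is placed by Polycomb repressive complex enzymes and marks genes that are kept silent. In differentiated cells it lies as broad domains over developmental regulators and over genes of other lineages, while the genes a cell uses are usually free of it. In macrophages, genes for cytokines, matrix proteins and activation states can carry the mark until they are induced.

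The domains were split differently in the lists while the total covered length was similar. WT BMDM had 28024 peaks over 251.9 Mb, or 10.23% of chromosomes 1 to 19. The mdx list had 41558 peaks over 259.9 Mb, or 10.55%. Peaks were shorter in mdx, with a median of 3400 bp against 5400 bp, and fewer were 50 kb or longer, 367 against 453. Per chromosome, the covered length in mdx ranged from 0.994 times that of WT on chromosome 4 to 1.128 times on chromosome 3. Both lists covered 206.4 Mb in common, which was 81.97% of the WT and 79.44% of the mdx length. Peaks that overlapped were merged into regions, of which 20912 were shared. Of the shared regions, 3852 (18.42%) held 1 WT peak against several mdx peaks, and 1383 (6.613%) held several WT peaks against 1 mdx peak. Another 2469 regions were in the WT list alone and 12065 in the mdx list alone. The regions of mdx alone had a median of 2200 bp and 24.55 reads/kb, and held 7.257% of the mdx reads. The regions of WT alone had a median of 3800 bp and 19.64 reads/kb and held 2.311% of the WT reads. Both kinds were shorter and weaker than the shared regions, with a median of 7400 bp and of 30.26 reads/kb in mdx and 24.84 in WT. Of the bases under WT peaks only, 78.7% lay in shared regions, at domains whose extent differed, against 43.66% of the bases under mdx peaks only.

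The mdx peaks held 10173431 reads and the WT peaks 8315029. A sum over called peaks moves with the extent of calling and does not give library depth, which is unknown. Reads per kb in shared regions were 1.217 times as high in mdx as in WT by the median (quartiles 1.11 and 1.337, n = 20912 regions). After scaling to reads in peaks the median was 0.995, and after dividing each list by the 1st percentile of its own densities it was 1.045. The size and the direction of a genome-wide difference in reads therefore turned on the scaling. For a gene window, the reads of a peak were counted by the share of the peak inside the window, as if spread evenly along it, so that a window inside a long peak takes the mean density of that peak. Coverage does not depend directly on the read scale, but it depends on where the caller ended a peak, and the part of depth in that was not tested.

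Most genes had little or no H3K27me3 coverage, and the rest were mostly covered to a similar extent in mdx and WT BMDM. The coverage of a gene is the share of its window under peaks. It averaged 18.42% in WT and 18.24% in mdx over all genes, the median change was 0, and 16730 genes (80.41%) lay within 5 percentage points. Of the 9349 genes with coverage in either list, 5272 (56.39%) did. Any coverage was present at 8334 genes in WT (40.1%) and 8927 in mdx (42.9%). Coverage of at least 50% was present at 3633 genes in WT (17.5%) and 3568 in mdx (17.1%), and 3319 (16%) had it in both. By a fixed size of 25 percentage points, 263 genes were lower in mdx (1.26% of the genes) and 215 were higher (1.03%). A gene start lay under a peak in both lists at 4648 genes (22.3%), in WT alone at 450 (2.16%) and in mdx alone at 496 (2.38%). With peaks up to 2 kb apart joined, 290 genes were lower and 325 higher, so the order of these counts was not fixed. Which genes were called depended on weak peaks. When peaks under 1.5 times the 1st percentile of density were left out of each list, the density filter below, 109 of the 263 lower genes (41.44%) and 78 of the 215 higher genes (36.28%) kept their call.

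**Figure D1:**
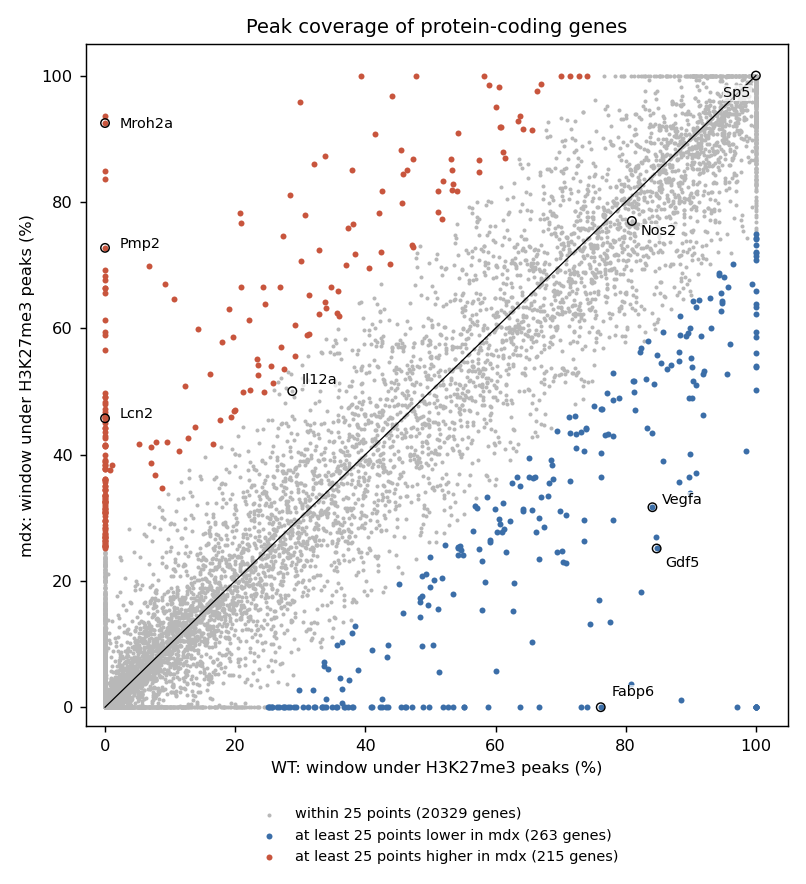
Share of each gene window under H3K27me3 peaks in WT (horizontal axis, %) and mdx (vertical axis, %), 1 point per protein-coding gene; the line is equality. Most points follow the line, 263 genes (blue) lie at least 25 points below it and 215 (red) at least 25 points above, and the circled genes are described in the text.

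The starts of the genes that changed were poorer in CG than those of the genes that kept the mark. The observed over expected ratio of CG dinucleotides within 500 bp of the gene start had a median of 0.309 at the genes lower in mdx and 0.2454 at the genes higher in mdx. At the 3319 genes covered by at least 50% in both lists the median was 0.4451, and over all genes it was 0.5685. The windows of the changed genes were also short, with a median of 11.74 kb for lower and 10.83 kb for higher genes against 23.63 kb for all genes, and the share of a short window moves further when a peak of a given length is lost. Copies elsewhere in the genome were more frequent among the changed genes than among all genes. At 33 of the 263 lower genes (12.55%) and 17 of the 215 higher genes (7.907%), at least 50% of sampled 32-base words of the window occurred more than once in GRCm38, against 5.277% of all genes, and reads from such copies cannot be assigned to 1 of them. Among genes with no coverage in either list the share was 8.003%, close to that of the higher genes. The part of window length and of copies in the changes was not tested.

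The sequences of 5 gene starts are examples at which the lists differed or matched, and do not stand for promoters in general. They are the RefSeq promoters of GRCm38.p6, the same coordinates as mm10, from 250 bases before to 50 after the start, 5′ to 3′ on the strand of the gene, with each CG in capitals. Fabp6 at chr11:43601513-43601812 (minus strand) was wholly under a WT peak and outside mdx peaks, and has 3 CG. Lcn2 at chr2:32387690-32387989 (minus) and Nnat at chr2:157559828-157560127 (plus) were wholly under mdx peaks and outside WT peaks, with 3 and 17 CG. The peaks over these promoters of Fabp6, Lcn2 and Nnat had 17.6, 22.86 and 25.5 reads/kb. The density filter left all of them out, so under it these promoters did not differ. Gdf10 at chr14:33923337-33923636 (plus), with 42 CG, and Sp5 at chr2:70474673-70474972 (plus), with 6, were wholly under peaks in both lists. Over the 31396 RefSeq promoters on these chromosomes the median was 7 CG (quartiles 3 and 21), and 94.75% held at least 1.
Fabp6: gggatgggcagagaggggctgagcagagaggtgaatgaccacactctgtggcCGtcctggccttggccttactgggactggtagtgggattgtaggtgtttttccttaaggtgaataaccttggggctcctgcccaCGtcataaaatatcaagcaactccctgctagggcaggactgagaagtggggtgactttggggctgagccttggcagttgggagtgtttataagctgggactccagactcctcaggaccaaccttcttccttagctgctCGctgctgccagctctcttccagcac
Lcn2: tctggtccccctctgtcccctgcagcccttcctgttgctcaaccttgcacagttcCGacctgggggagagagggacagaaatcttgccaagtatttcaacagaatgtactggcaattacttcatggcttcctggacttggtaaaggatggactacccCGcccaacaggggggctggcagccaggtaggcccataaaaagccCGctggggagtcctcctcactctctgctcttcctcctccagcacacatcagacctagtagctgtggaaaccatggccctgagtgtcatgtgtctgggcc
Nnat: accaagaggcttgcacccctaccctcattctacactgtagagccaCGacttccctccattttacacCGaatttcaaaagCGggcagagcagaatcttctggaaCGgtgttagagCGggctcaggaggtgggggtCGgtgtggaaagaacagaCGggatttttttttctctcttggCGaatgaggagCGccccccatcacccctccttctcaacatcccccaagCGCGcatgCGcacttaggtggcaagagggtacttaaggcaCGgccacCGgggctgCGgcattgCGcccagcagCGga
Gdf10: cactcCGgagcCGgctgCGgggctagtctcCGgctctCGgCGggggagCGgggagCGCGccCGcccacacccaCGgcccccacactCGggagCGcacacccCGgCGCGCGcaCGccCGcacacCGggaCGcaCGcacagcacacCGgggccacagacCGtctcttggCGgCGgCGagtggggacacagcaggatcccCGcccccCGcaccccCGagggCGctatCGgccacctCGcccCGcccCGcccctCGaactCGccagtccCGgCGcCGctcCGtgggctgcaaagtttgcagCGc
Sp5: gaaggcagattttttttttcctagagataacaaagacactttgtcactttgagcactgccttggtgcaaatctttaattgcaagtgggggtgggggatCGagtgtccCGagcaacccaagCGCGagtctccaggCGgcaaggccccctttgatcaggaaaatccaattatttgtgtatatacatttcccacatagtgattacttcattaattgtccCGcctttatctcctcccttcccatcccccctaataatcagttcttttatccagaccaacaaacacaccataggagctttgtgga
The promoters covered in 1 list alone thus held 3, 3 and 17 CG, and those covered in both held 6, near the median of all promoters, and 42.

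Among the largest falls of coverage were genes of tissues other than blood. Fabp6, the bile acid-binding protein of the ileum, had 76.16% of its window under 2 weak WT peaks of 18.18 and 17.6 reads/kb, and no mdx peak. Both WT peaks were below the density filter, under which Fabp6 had no coverage in either list. Gdf5, a growth factor of the BMP family known for joint formation, was covered at 84.75% in WT and 25.13% in mdx, with 212.5 and 79 reads in its window. The read ratio of Gdf5 was 0.372 (95% interval 0.284 to 0.485) unscaled and 0.304 (0.232 to 0.396) scaled to reads in peaks. These intervals are exact Clopper-Pearson intervals and cover counting error only. At Gdf5 a mdx peak of 2.6 kb remained over the gene start with 30.38 reads/kb, inside the WT peak of 6.6 kb with 23.94 reads/kb (the start of the gene stayed under a peak in both lists). Agmat, the agmatinase enzyme, was covered at 84.6% and 26.89%, and Cyp2d12, a cytochrome P450, at 75.92% and 17.02%, a difference that was 0 under the density filter. The olfactory receptor gene Olfr547 went from 80.74% to 3.633%, on 80 and 6.615 reads, and also differed by 0 under that filter. The density filter left 5 of the 9 falls described here and below, and Gdf5 stayed at -59.61 points.

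Several of the other largest falls lay at immune genes or at genes with copies. H2-Oa, a chain of the class II-like molecule that controls peptide loading, had 58.84% under a WT peak with 80.25 reads and no mdx peak, and no difference under the density filter. Oas1g, an interferon-induced oligoadenylate synthetase, was covered at 65.58% in WT and 10.3% in mdx, with 354.3 and 42 reads, and 42.5% of its sampled words occurred more than once in the genome. Cd300ld2, a member of the CD300 family of myeloid surface receptors, was covered at 77.52% and 13.43%, with 70% of its words repeated. Synb, a placental fusion protein of retroviral origin, went from 66.62% to no peak, with 100% of its words repeated. Oas1g, Cd300ld2 and Synb kept their call under the density filter, at -41.55, -64.09 and -66.62 points, but the placing of their reads is uncertain.

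The largest rises started from no WT peak at 9 of 10 genes. Mroh2a, a HEAT repeat protein gene on chromosome 1, had 92.48% of its window under mdx peaks with 1929 reads and no WT peak. Its main mdx peak spanned 36.8 kb (chr1:88225401-88262200, mm10) at 51.36 reads/kb, and only 5.501% of the mdx peaks were denser. Calm4, a calmodulin-like gene, had 93.58% in mdx with 163.2 reads, though 50% of its words occurred more than once. Pmp2, a fatty acid-binding protein of myelin, had 72.72% under 3 mdx peaks with 217.5 reads. Smaller sets of reads lay at Grifin, a lens galectin relative (66.42%, 208 reads), Ggt6, a gamma-glutamyltransferase (67.61%, 146 reads), Krtap10-10, a hair keratin-associated protein (69.18%, 142.7 reads) and Hmga1b, a chromatin architectural protein (65.57%, 155 reads). Olfr1371 had 66.32% and Spag11a, a gene of the epididymis, 61.29%. H1fnt, the linker histone of spermatids, was covered at 6.746% in WT and 69.9% in mdx. Because a region without a WT peak can still hold reads that the lists do not count, no fold is given for these genes. The density filter left 5 of the 10 rises, which were Mroh2a, Krtap10-10, Grifin, Olfr1371 and Hmga1b. Under it the change was 0 at Calm4, Ggt6 and Spag11a, 11.91 points at Pmp2 and 5.473 points at H1fnt. Of the rises that were left, Olfr1371 and Hmga1b had 50% and 32.5% of their words repeated, so the placing of part of their reads is uncertain.

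**Figure D2:**
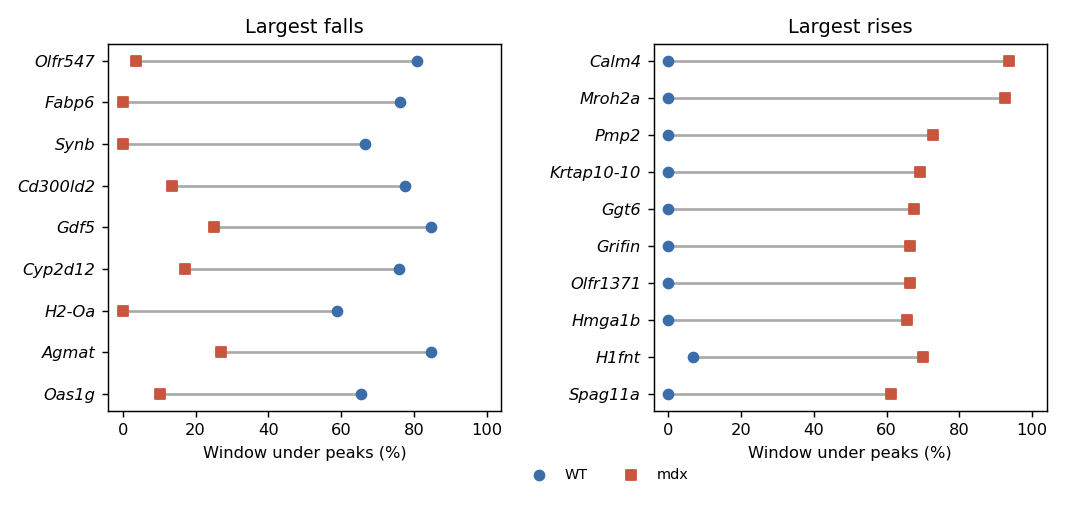
Share of the gene window under H3K27me3 peaks (horizontal axis, %) in WT (blue circles) and mdx (red squares) for 9 of the genes with the largest falls and the 10 with the largest rises whose scaled reads moved the same way. The falls start between 58.84% and 84.75% in WT, and 9 of the 10 rises start at 0.

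The longest stretches under peaks of 1 list alone lay at a tandem array and Ulk4 in WT and at Mroh2a in mdx. The longest of WT was 44.8 kb on chromosome 2 (chr2:83949001-83993800), a peak of 1240 reads over 7 predicted genes, Gm13698 to Gm13691, that repeat every 5810 bp with 99.96 to 100% identity. No mdx peak was listed there, and since the copies cannot be told apart by short reads the placing of these reads is uncertain. The second was 24.6 kb within Ulk4, a kinase-like gene, at chr9:121215801-121240400, with 3070 reads or 124.8 reads/kb. Only 11 of the 28024 WT peaks were denser than this one, yet no mdx peak was listed there. Reads in the whole Ulk4 window numbered 6613 in WT, 3070 of them in this 1 peak, and 3027 in mdx. The ratio was 0.458 (0.438 to 0.478) unscaled and 0.374 (0.358 to 0.391) scaled, and does not describe the window outside that peak. The other WT stretches were at Sdk2, Cphx3 and Kazn, at 19.07 to 25.22 reads/kb. In the Cphx3 window 100% of the sampled words occurred more than once in the genome, so the placing of its reads is uncertain too. After Mroh2a, the longest of mdx were 19.8 kb at Hrh1, the histamine receptor, 15 kb on chromosome 16 outside protein-coding genes, 14.8 kb at Dnah14, a dynein heavy chain, and 14.2 kb at Slc28a3, a nucleoside transporter. Hrh1, Dnah14 and Slc28a3 were covered in both lists, so these stretches extended or filled domains that WT also had.

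**Figure D3:**
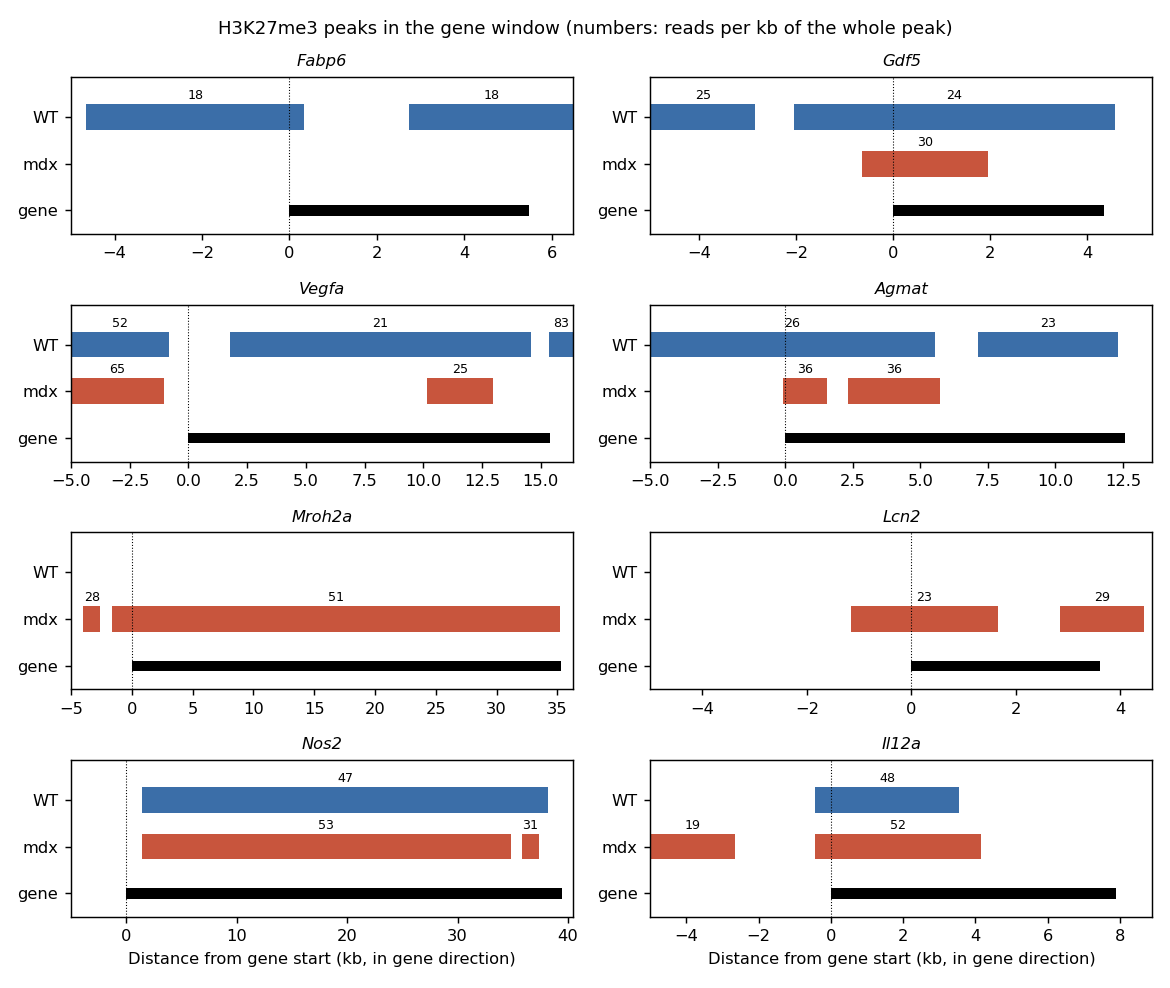
H3K27me3 peaks of WT (blue) and mdx (red) in the windows of 8 genes, with the gene body in black and distance from the gene start in kb along the horizontal axis; numbers are reads per kb of the whole peak. WT peaks alone lie at Fabp6, mdx peaks alone at Mroh2a and Lcn2, and the mdx peaks of Gdf5, Vegfa and Agmat cover less of the window than those of WT.

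Lower coverage often went without a 2-fold loss of reads. Of the 263 genes lower in coverage, 142 were also at least 2-fold lower in reads scaled to reads in peaks and 121 were not. Of the 215 genes higher in coverage, 138 were at least 2-fold higher in scaled reads and 77 were not. Genes called in opposite directions numbered 0. Reads were counted only under peaks, by the share inside the window, so the measures are tied and this 0 carries little information. At Ltbp3, which binds latent TGF-beta, the window was covered at 99.44% in WT and 66.99% in mdx, while its reads numbered 623.5 and 604.1. Vegfa, the vascular endothelial growth factor, kept a strong upstream domain of 51.84 reads/kb in WT and 65.02 reads/kb in mdx. Over the Vegfa body a WT peak of 12.8 kb at 21.09 reads/kb stood against a mdx peak of 2.8 kb at 25.36 reads/kb, and the window went from 84.1% to 31.66%. With the density filter the change at Vegfa was -5.651 points, as the WT peak over the body was left out. A WT domain of 207.2 kb at 83.11 reads/kb also reached the far end of the window, by 8 bp of the gene body, with no mdx peak in the window there.

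In reads as deposited, 408 genes were at least 2-fold lower in mdx (1.96%) and 915 higher (4.4%), with at least 50 reads in the higher list. After scaling to reads in peaks, 508 were lower (2.44%) and 723 higher (3.47%). Genes with a peak in 1 list alone made up part of these. Peaks in mdx alone were present at 1015 genes, of which 509 had 50 reads or more, and peaks in WT alone at 422 genes, of which 186 did. In the 7912 genes with reads in both lists, the median ratio of mdx to WT was 1.183 unscaled (quartiles 1.033 and 1.354) and 0.967 scaled (0.845 and 1.106).

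**Figure D4:**
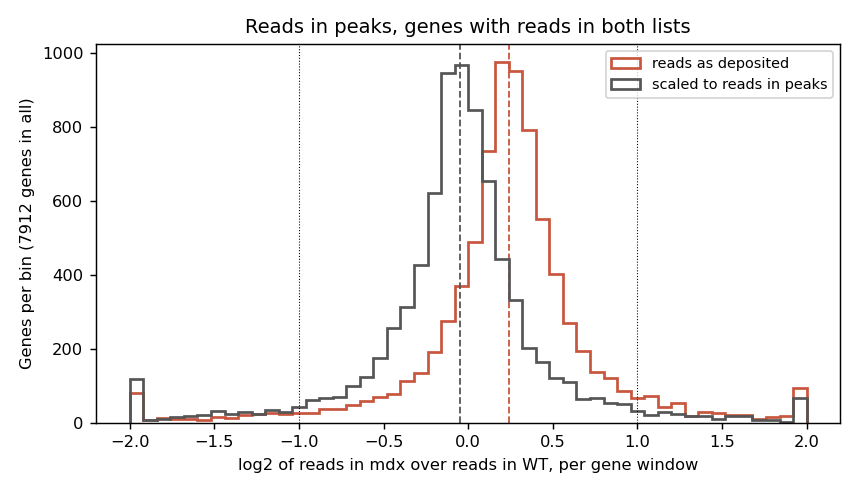
Distribution of the log2 ratio of reads in mdx over WT per gene window in 7912 genes with reads in both lists, as deposited (red) and scaled to reads in peaks (grey); dashed lines are the medians, log2 0.24 and -0.05, dotted lines 2-fold, and values beyond the axis are counted in the end bins. The scaling moves the whole distribution from above to just below equality.

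Genes that had broad coverage in both lists, a choice that leaves out the genes that lost or gained it, mostly lay near the common read ratio. In 2928 genes with at least 50% coverage and at least 200 reads in both lists, predicted genes left out, the scaled ratio had a median of 0.959 (quartiles 0.895 and 1.03), and 0 genes reached 2-fold either way. Unscaled the median was 1.174, and 4 genes, Calcoco2, Chst2, Slc51a and Sp5, were more than 2-fold higher in mdx, at 2.348, 2.27, 2.265 and 2.073. These ratios compare the densities of the peaks that cover a gene, and at many genes the peaks differed in extent. The lowest ratios were 0.521 at Lgals2, the galectin-2 gene, and 0.537 at Cd300ld5, for which 100% of the words were repeated. Ace3 (0.551), Urad, an enzyme of urate breakdown (0.598), Duxbl1 (0.605, with 97.5% of words repeated) and Golt1a (0.609) followed. At Lgals2 a WT peak of 42.4 kb with 47.57 reads/kb stood against mdx peaks of 31 kb with 59.35 reads/kb and of 7 kb with 29.14 reads/kb, the smaller over the gene. The highest ratios were 1.92 at Calcoco2, an autophagy receptor, and 1.86 at Chst2, a sulfotransferase. Calcoco2 lay in a mdx peak of 213.2 kb with 81.13 reads/kb that ran far past the gene, and in WT under peaks of 21 and 16.2 kb with 34.14 and 36.36 reads/kb, so its ratio cannot be told apart from the joining of peaks. Slc51a, a subunit of a bile acid exporter (1.85), Sp5, a transcription factor downstream of Wnt (1.69), Aqp1, a water channel (1.56) and Mab21l2, a developmental gene (1.54) followed. Slc51a lay in a mdx peak of 74.6 kb with 81.37 reads/kb. In WT it lay under peaks of 4 and 7.4 kb with 30.5 and 42.16 reads/kb. A separate WT peak of 91.4 kb with 68.84 reads/kb lay outside the gene body. The ratio of Slc51a cannot be told apart from the joining of peaks either. Sp5 was fully covered in both lists, by a WT peak of 28.2 kb with 35.64 reads/kb and a mdx peak of 10.6 kb with 73.87 reads/kb, which differed in extent as well. At Aqp1 and Mab21l2 the peaks lay whole within the window, so that their reads, 231 and 442 and 209 and 393, are the counts as deposited.

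A further 30 lists of genes by function or cell type were described by the same counts, to be read beside 1.26% lower and 1.03% higher in coverage over all genes, shares at which a list of this size holds about 1 call or none. In lists of function, 29 genes were called in coverage and 12 of them kept the call under the density filter. Developmental regulators carried the mark broadly in both genotypes. All 97 developmental transcription factors had their start under a peak in both lists, with mean coverage of 89.05% in WT and 90.4% in mdx, and 0 were lower or higher. Of the 39 Hox genes, 0 were lower or higher by 25 points, and the mean was 94.23% and 92.72%. Hoxb4 had 303.2 reads in WT and 86.19 in mdx, the 1 Hox gene past 2-fold. Among Wnt ligands and Frizzled receptors 0 of 29 were called either way, and among ion channels of excitable cells 0 of 47, counts at which 0 is near the share over all genes.

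Genes of the extracellular matrix and growth factors had a few calls, which are named with their values. Of 62 matrix glycoproteins, proteoglycans and elastic fibre genes, 4 were lower and 0 higher. These were Mfap2, a microfibril protein (91.49% and 58.79%), Ltbp3 (99.44% and 66.99%), Lamb2, a laminin chain (73.83% and 44.06%), and Loxl2, a collagen cross-linking enzyme (68.27% and 35.5%). At Loxl2, 92.5% of the words occurred more than once in the genome, so its value is uncertain. Of 42 collagen genes 0 were called, with the largest fall at Col6a3 (55.89% and 35.18%) and the largest rise at Col14a1 (24.65% and 38.62%). Neither direction was stable, as Col6a3 turned to 12.58 points under the density filter and Col14a1 to -21.27 points within 2 kb of the start. Of 43 matrix proteases and inhibitors, Mmp14 (84.87% and 55.69%) and Adamts4 (66.6% and 23.43%) were lower and Mmp7 was higher, from no peak to 26.02%. Under the density filter Adamts4 turned to 23.43 points higher and Mmp7 had no coverage in either list, while Mmp14, Mfap2, Ltbp3, Lamb2 and Loxl2 kept their calls. Over the gene body Mmp14 (-24.72 points), Mfap2 (-17.68) and Lamb2 (-24.09) fell short of the size, and within 2 kb of the start the change was 0 at Mfap2, Lamb2 and Loxl2, so of these 5 genes Ltbp3 alone kept its call in these 3 settings, and it was at -20.6 points with peaks up to 2 kb apart joined. Of 33 TGF-beta, BMP and GDF ligands, 3 were lower, which were Gdf5, Bmp2 (77.97% and 52.86%) and Gdf10 (65.7% and 36.28%), and 0 were higher. Reads in the Gdf10 window were 332 in WT and 333 in mdx, and those at Bmp2 399.6 and 466.4, so the lower extent went without fewer reads as deposited. Under the density filter Gdf5 and Gdf10 stayed lower and Bmp2 turned to 5.034 points higher, and within 2 kb of the start Gdf10 was at -4.674 points. Of 15 genes of the VEGF and PDGF systems, 1 was lower (Vegfa), and Kdr, a VEGF receptor, had 210 reads in WT and 91 in mdx.

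Immune genes were called in both directions, on few genes and mostly on weak peaks. Of 35 chemokine ligands, Ccl2, which attracts monocytes, was lower (51.12% and 15.6%, with 94.32 and 34.34 reads). Ccl17, Ccl8 and Cxcl16 were higher, Ccl17 and Cxcl16 from no WT peak to 46.78% and 26.53% and Ccl8 from 47.26% to 86.87%. The peaks of Ccl2 lay outside its body, where the change was 0. Under the density filter Ccl2 kept its call, Ccl17 and Cxcl16 had no coverage in either list and Ccl8 turned to -15.76 points (-13.37 over the gene body). Of 40 interleukins, Il20 was lower (100% and 59.39%) and Il22 higher (32.84% and 72.46%), but over the Il22 body alone the change was -2.996 points. Both kept their call under the density filter, at -40.61 and 39.62 points, but Il20 was at -17.91 over its body and -15.02 within 2 kb of the start. At Il20 27.5% and at Il22 45% of the sampled words occurred more than once in the genome, so the placing of part of their reads is uncertain. Of 21 genes of M1-type activation, Socs3, an inhibitor of cytokine signalling, was lower, from a WT peak with 76.4 reads to none, though not under the density filter. Il1b of the same list had 30.23% and 54.1%, just short of the size for a call, and 0 points apart under the density filter, but its start was under a peak in WT alone and its change within 2 kb of the start was -20 points. Of 24 genes of M2-type activation 3 were higher and 0 lower, Ccl17, the lectin Mgl2 (no WT peak and 26.85%) and Irf4, a transcription factor of M2-type activation (17.68% and 45.47%, with 146 and 339 reads). None of these 3 reached 25 points under the density filter, with 0 at Ccl17, 22.69 at Mgl2 and 13.47 at Irf4. Ccl22 of the same list went the other way, from 90.09% to 65.23% (-24.86 points), with its start under a peak in WT alone. Its window held 269.8 reads in WT and 270.8 in mdx, and its change was 0 under the density filter and -6.727 points over the gene body. In scaled reads 4 M2-type genes were at least 2-fold higher, beside 3.47% of all genes, and all of these, Chil4, Clec10a, Ccl17 and Mgl2, had no WT peak and 57 to 112.1 reads in mdx. Of 31 interferon-stimulated genes, Oasl1 was lower (35.6% and none) and Ifi27l2a higher (1.065% and 38.33%), and under the density filter Ifi27l2a kept its call (37.26 points) and Oasl1 had no coverage in either list. The peaks of Ifi27l2a lay outside its body, where its change was 0, as it was within 2 kb of the start. Of 29 MHC genes, H2-Oa and H2-K1, a class I chain, were lower, and H2-K1 kept its call under the filter (-54.21 points). Of 22 genes of neutrophil granules, Ctsg, Camp and Stfa3 were lower and Lcn2 was higher, each on 110 reads or fewer in either list, and none of these kept its call under the filter. Toll-like receptors and adaptors (23 genes) and genes that write, read or erase the mark (32 genes) had 0 calls in coverage.

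Some imprinted genes had their start under a peak in 1 list alone. Imprinted genes are expressed from the copy of 1 parent, and some carry H3K27me3 at a promoter. Of 40, none was called in coverage, but 6 had their start under a mdx peak alone and 2 (Slc22a18 and Plagl1) under a WT peak alone, beside 2.38% and 2.16% of all genes. The 6 were Peg3, Usp29, Rtl1, Asb4, Nnat and Ins2. The starts of Peg3 and Usp29 lie close together and shared the same mdx peak, with 85 reads in each window, so they are not separate observations. Rtl1 had 72 reads and Nnat 51 in mdx, and Peg3, Usp29, Rtl1 and Nnat had no WT peak. Asb4 and Ins2 were covered in both lists, at 36.31% and 47.45% and at 61.26% and 69.74%, and the mdx peaks reached over the start. Under the density filter 3 starts were under a mdx peak alone (Peg3, Usp29 and Asb4) and 2 under a WT peak alone. Other lists went the other way, with 4 interleukin starts (Il1b, Il11, Il16 and Il17b) under a WT peak alone against 1 under a mdx peak alone, and 3 chemokine starts against 0. In 25 imprinted genes the start was under a peak in mdx and in 21 in WT.

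**Figure D5:**
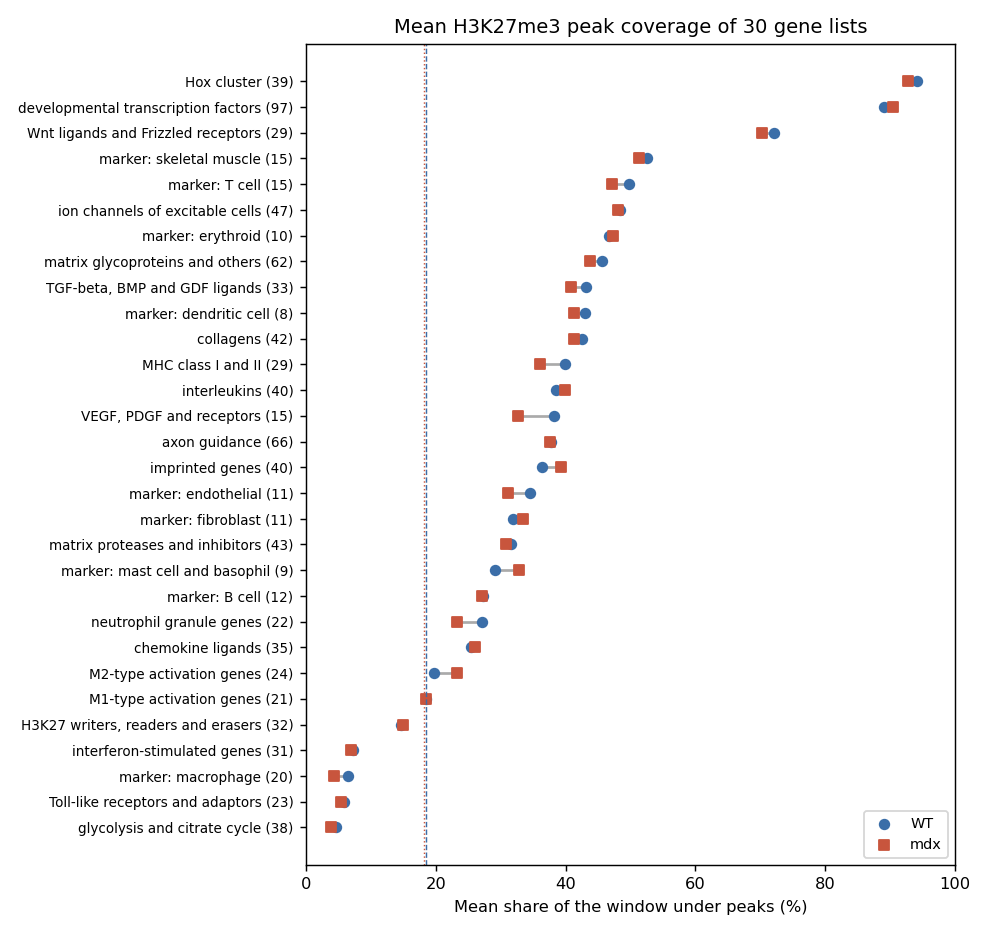
Mean share of the gene window under H3K27me3 peaks (horizontal axis, %) in WT (blue circles) and mdx (red squares) for 30 gene lists, with the number of genes in brackets; the dashed and dotted lines are the means of all genes, 18.42% in WT and 18.24% in mdx. Hox and developmental genes lie near 90% in both, macrophage markers at 6.434% and 4.261%, and 21 of the lists are lower in mdx. With peaks up to 2 kb apart joined, 15 of the 30 lists were lower in mdx.

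Macrophage markers were the least covered of the cell type markers in both lists. Of 20 macrophage markers, 17 had no coverage in either list, and the mean was 6.434% in WT and 4.261% in mdx. The mean was 49.71% and 47.09% for 15 T cell markers, 27.32% and 27.18% for 12 B cell markers, 31.84% and 33.4% for 11 fibroblast markers and 52.61% and 51.34% for 15 genes of skeletal muscle. Endothelial markers had 34.49% and 31.11%, and Cdh5, the endothelial cadherin, the largest fall among them (31.86% and 11%). Tie1, an endothelial receptor, had the largest rise (39.44% and 49.86%), and the starts of Tek and Tie1 were under a peak in mdx alone. Erythroid markers had 46.63% and 47.25%, mast cell and basophil markers 29.1% and 32.81%, and dendritic cell markers 42.99% and 41.31%. Of the markers of the other 8 cell types in these lists, 0 were called in coverage. In scaled reads the endothelial markers Cdh5 and Kdr were at least 2-fold lower.

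Of 8 activation markers and receptors that the study names, 5 were unmarked and 3 were marked in both lists. Il6, Tgfb1, Mrc1, Chil3 and Tlr4 had no H3K27me3 peak in their window in either genotype. Nos2, the inducible nitric oxide synthase, had 80.94% in WT and 76.98% in mdx, with 1717 and 1829 reads, a ratio of 1.065 (0.997 to 1.138) unscaled and 0.871 (0.815 to 0.93) scaled, so its direction turned on the scaling. Tnf had 27.82% and 34.77%, on 60 and 85 reads (scaled ratio 1.158, 0.822 to 1.639). Il12a, the p35 chain of interleukin 12, had 28.77% and 50.04%, on 191 and 284.9 reads (scaled ratio 1.219, 1.012 to 1.473), with a second mdx peak upstream of the peak over its start. The change of 21.27 points at Il12a was 4.315 under the density filter, and that at Tnf turned to -9.998 within 2 kb of the start.

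The promoter primers of the study's ChIP-qPCR place that assay relative to the peaks, and each pair matched GRCm38 at 1 place. The Nos2 primers amplify chr11:78920307-78920432, which lay outside peaks in both lists, 1769 bp short of the domain over the gene body. The Il12a primers amplify chr3:68691382-68691469, under a peak in both lists, with 47.75 reads/kb in WT and 52.17 in mdx. The amplicons of Mrc1, Tnf and Tgfb1 lay outside peaks in both, that of Tnf by 444 bp in WT and 844 bp in mdx.
Nos2 forward: cagcacagcccatccactattc
Nos2 reverse: ggacacattcatcaggaggttttc
Il12a forward: atcgacgcacttgtccttga
Il12a reverse: attgtctggatagccggcag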

How the data were processed

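The deposited H3K27me3 peak lists hold, per the methods of the study, peaks that the authors called with SICER2 (window 200 bp, gap 600 bp, FDR below 0.01) on reads mapped to mm10 with Bowtie2, after merging replicates. The submitters' processing notes name CASAVA 1.8, cutadapt 1.15, Bowtie2 2.3.4 and SICER 2.0. The authors' value for a peak is a raw count of reads, with no scaling and no input subtracted. Reads of a peak were assigned to a gene window by the share of the peak inside it. Scaled reads are per 1000000 reads in peaks on chromosomes 1 to 19. Named genes were the 10 largest falls and rises of coverage with scaled reads moving the same way (1 gene per region, no predicted genes), the 6 lowest and highest scaled ratios at kept domains, 8 marker genes, the largest fall and rise of each list if at least 10 points, and the 5 longest stretches of each list. Other genes are members called in a list, named after their values were seen. Some genes that these rules pick are not reported here. The members and lists were chosen with earlier results of these data known. Repeats were counted with 40 words of 32 bases per window. The procedure was tested on simulated data. These were the WT list with the peaks of 200 genes removed and the other counts raised 1.2-fold with counting noise. Peak borders and splitting did not vary in them, so the test checked the calculation and not the calls. Python 3.11.15, numpy 2.4.6, scipy 1.17.1 and matplotlib 3.10.9 were used. The other 4 peak lists were not used here.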

Additional observations from a re-analysis of the deposited data

Results flagged for a closer look

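Outside the chromosomes compared, each list held 1 peak on the mitochondrial genome, from position 1 to 16200, with 2655 reads in WT and 3880 in mdx. No peak list was made from the input libraries, so the background there was not analysed here, and the source of these reads was not tested.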

How the results depend on the processing

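No paired analysis was possible because the authors merged the 2 libraries of a genotype before calling peaks, and for the same reason no replicate could be left out. An equal number of peaks per list kept every WT peak and removed the least dense mdx peaks, so values lower in mdx follow from its construction and bear on no direction: genes lower and higher in coverage numbered 587 and 100, unscaled reads 877 and 461, scaled reads 937 and 408, starts in mdx alone 307, regions of WT alone 7046 and of mdx alone 5169, and the median density ratio was 1.255. That ratio was 1.211 with peaks of at least 2 kb, where regions of WT alone numbered 3782, 1.202 with peaks of at least 1.5 times the 1st percentile of density, 1.181 with peaks up to 2 kb apart joined, where 325 genes were higher in coverage, and 1.209 when 50% of the region counted as shared, where regions of WT alone numbered 4440. It turned from 1.217 to 0.995 when scaled to reads in peaks, and was 1.045 when scaled to the 1st percentile. Over 2 kb either side of the start, 609 and 719 genes were lower and higher in coverage, 174 and 398 in unscaled reads and 244 and 325 in scaled reads. Over the gene body, 263 were lower in unscaled and 335 in scaled reads. A threshold of 10 points gave 1204 and 1048 genes and one of 50 points 34 and 27. A 1.5-fold threshold gave 1647 higher unscaled and 881 lower scaled. With no minimum of reads 695 and 1469 genes were lower and higher unscaled, and 807 and 1266 scaled. With all reads of the peaks that touched the window 851 were lower and 1262 higher unscaled, and 1068 lower and 1038 higher scaled, where the order turned. Among the 58 named genes called in coverage the direction turned at Adamts4 (23.43 points), Bmp2 (5.034), Camp (9.71) and Ccl8 (-15.76) with the density filter, at Ccl8 with an equal number of peaks (-15.76) and over the gene body (-13.37), and at Il22 (-2.996) over the gene body. Among the 44 named genes with smaller changes it turned at 11 under at least 1 alternative (at 8 with the equal number of peaks), which were Batf3, Cd5, Cma1, Col14a1, Col6a3, Il1b, Kcna4, Nid1, Pax8, Tie1 and Tnf. Similar counts do not mean the same genes. Of the 263 lower and 215 higher, 109 and 78 kept the call with the density filter and 175 and 152 over the gene body. Around the start, where more genes were called, 154 and 129 did. The cause was not tested. The other 57 counts stayed within 1.5 times, among them those without genes with near copies (230 lower and 198 higher in coverage), an alternative chosen after seeing the data. The order still turned in some of these. Starts in WT alone and in mdx alone numbered 517 and 433 with peaks of at least 2 kb. Genes lower and higher in coverage numbered 245 and 252 with the density filter. Depth is unknown and bounds every comparison of reads.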
